A study of Mus musculus with 8 samples.

Results

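The 9 serotonin receptor genes described here were Htr1a, Htr1b, Htr1f, Htr2a, Htr2c, Htr3a, Htr4, Htr5b and Htr7, out of 32285 genes in the RNA matrices. They were chosen by their RNA levels across cell types in these same libraries. Their order of levels across cell types is therefore a description and was not tested. Another 5 serotonin receptor genes of the files (Htr1d, Htr2b, Htr3b, Htr5a and Htr6) were not members and are given only as background. All 9 member symbols were present in each of the 4 RNA libraries.

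The libraries came from a 10x single-nucleus multiome assay, which reads RNA and open chromatin (ATAC) from the same nuclei, of dissected hippocampus from male wild-type C57BL/6J mice at postnatal day 21. Their dams had received a diet with folic acid at 2 mg/kg (the control diet, MF) or at 20 mg/kg (the high diet, HF). Both diets were begun before mating and kept through pregnancy and lactation. Each diet had 2 libraries, written MF1, MF2, HF1 and HF2. Neither diet lacked folic acid, the 2 diets were the whole treatment, and the number of pups pooled in a library was not stated in the sources used here.

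Serotonin reaches the hippocampus through fibres of neurons whose cell bodies lie in the raphe nuclei of the brainstem, so the cells that make it lie outside the tissue. Its receptors fall into groups by what they do in the receiving cell. Htr1a, Htr1b and Htr1f encode receptors coupled to inhibitory Gi/o proteins, and Htr2a and Htr2c couple to Gq and phospholipase C. Htr4 and Htr7 couple to Gs and raise cyclic AMP, and Htr3a encodes a subunit of the family's only ligand-gated ion channel. No coupling is given here for Htr5b. Because nuclei were assayed, the values below count nuclear RNA, including unspliced RNA, and not receptor protein at synapses.

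The cell types were rebuilt from the RNA counts, with all serotonin receptor genes left out of the genes used for clustering, and were named from marker lists. Of 2965 to 4241 deposited nuclei per library, 2249 to 3473 passed the filters, 11518 in all, with a median of 6655 UMIs (counted RNA molecules). The 13 types were mature and immature dentate granule neurons (DG-M, 1924 nuclei, and DG-i, 924), pyramidal neurons of CA1 (1054) and CA3 (494), neurons with subiculum markers (SUB, 359), inhibitory neurons of the Lhx6 lineage (INH-M, 127) and of the Adarb2 lineage (INH-C, 209), Cajal-Retzius cells (CR, 133), astrocytes (AST, 1292), oligodendrocyte progenitors (OPC, 578), oligodendrocytes (ODC, 755), microglia (MG, 687) and vascular cells (VASC, 183). They held 8719 nuclei (75.7%). The other 2799, among them 425 of the 761 inhibitory nuclei, were cycling (91), in clusters that met no naming rule (1607) or in clusters set aside for their doublet scores (1101). The marker list of each of the 13 types was highest in the type of its name. Clusters were named from these same lists, so this order does not test the names. Separation was uneven, in CPM (explained below). The CA1 list stood at 3237 in CA1 and 2797 in SUB, and the SUB list at 3306 in SUB and 2315 in CA3. The INH-M list stood at 10721 in INH-M and 6341.5 in OPC. By contrast, the MG list stood at 25860 in MG and at most 333 elsewhere. The choroid plexus list, which has no type of its own here, was highest in VASC. Depth was uneven between types, with median UMIs of 17639 in CA3 and 1754 in MG, and any pair of libraries shared 13 to 27 nucleus barcodes. Fewer nuclei of a subtype inside a type and less RNA per nucleus cannot be told apart in the summed values.

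The DNA at the start of 3 members is shown first, because they cover 3 of the receptor groups (Gi/o, Gq and Gs) and Htr7 stood apart in base composition. Each line gives bases before the gene's start in the direction of transcription, from RefSeq on GRCm38.p6, and capitals would mark the TATA box TATAAA, the GC box GGGCGG or the cyclic AMP response element TGACGTCA on either strand (none occurs in them). Htr1b is at chr9:81633833-81634082 (minus strand), Htr2c at chrX:146962263-146962512 (plus strand) and Htr7 at chr19:36057508-36057610 (minus strand).
Htr1b: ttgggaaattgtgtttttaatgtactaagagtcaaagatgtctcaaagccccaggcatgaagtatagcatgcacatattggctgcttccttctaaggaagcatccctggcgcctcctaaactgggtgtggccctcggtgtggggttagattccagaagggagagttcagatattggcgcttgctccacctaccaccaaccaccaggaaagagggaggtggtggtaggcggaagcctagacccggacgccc
Htr2c: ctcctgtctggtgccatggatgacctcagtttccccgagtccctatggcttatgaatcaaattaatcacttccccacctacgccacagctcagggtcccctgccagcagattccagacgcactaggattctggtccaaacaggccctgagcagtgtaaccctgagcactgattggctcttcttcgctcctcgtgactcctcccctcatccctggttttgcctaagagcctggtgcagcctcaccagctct
Htr7: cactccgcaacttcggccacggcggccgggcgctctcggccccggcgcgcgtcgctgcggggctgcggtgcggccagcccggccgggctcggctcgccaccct

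The RefSeq promoter table held windows of 300 bases (250 before and 50 after the start) for 6 of the 9 members, all but Htr3a, Htr4 and Htr5b. The Htr7 window was 81% G and C, with 46 CpG pairs, which placed it at percentile 99.3 of the 32851 promoters in the table. The windows of Htr1a, Htr1b, Htr1f, Htr2a and Htr2c held 52 to 56.3% G and C and 5 to 13 CpG pairs, beside medians of 52.7% and 7 over all promoters. On both strands, the GC box GGGCGG was found once each in Htr1a, Htr1f and Htr2a (35.7% of all promoters hold it), and TAATTA once in Htr2a (5.29%). None of the 6 windows held TATAAA (13.6% of all promoters), TGACGTCA (1.79%) or the E-box CANNTG (72.3%). These are matches of letters only and say nothing of binding.

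RNA levels are given as CPM (counts-per-million, here of all UMIs of a cell type in a library), in the order MF1, MF2, HF1, HF2 where 4 values are listed, and means carry the SD over the 4 libraries. In all retained nuclei Htr4 had 12953 counts, Htr2c 10022, Htr1f 7160, Htr7 1282, Htr2a 1087, Htr1a 527, Htr1b 322, Htr5b 253 and Htr3a 185. Long genes collect more nuclear reads, so the levels of different members are compared per kilobase of gene span. On that scale, CPM over all nuclei per kilobase, Htr1a was highest (1.17), then Htr4 (0.745), Htr1b (0.579), Htr2c (0.417, or 0.388 without 7 nuclei of library HF1 that carried choroid plexus genes) and Htr1f (0.391), so that the order of the last 2 rested on those nuclei, while Htr2a, Htr3a, Htr5b and Htr7 lay between 0.127 and 0.157.

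**Figure D1:**
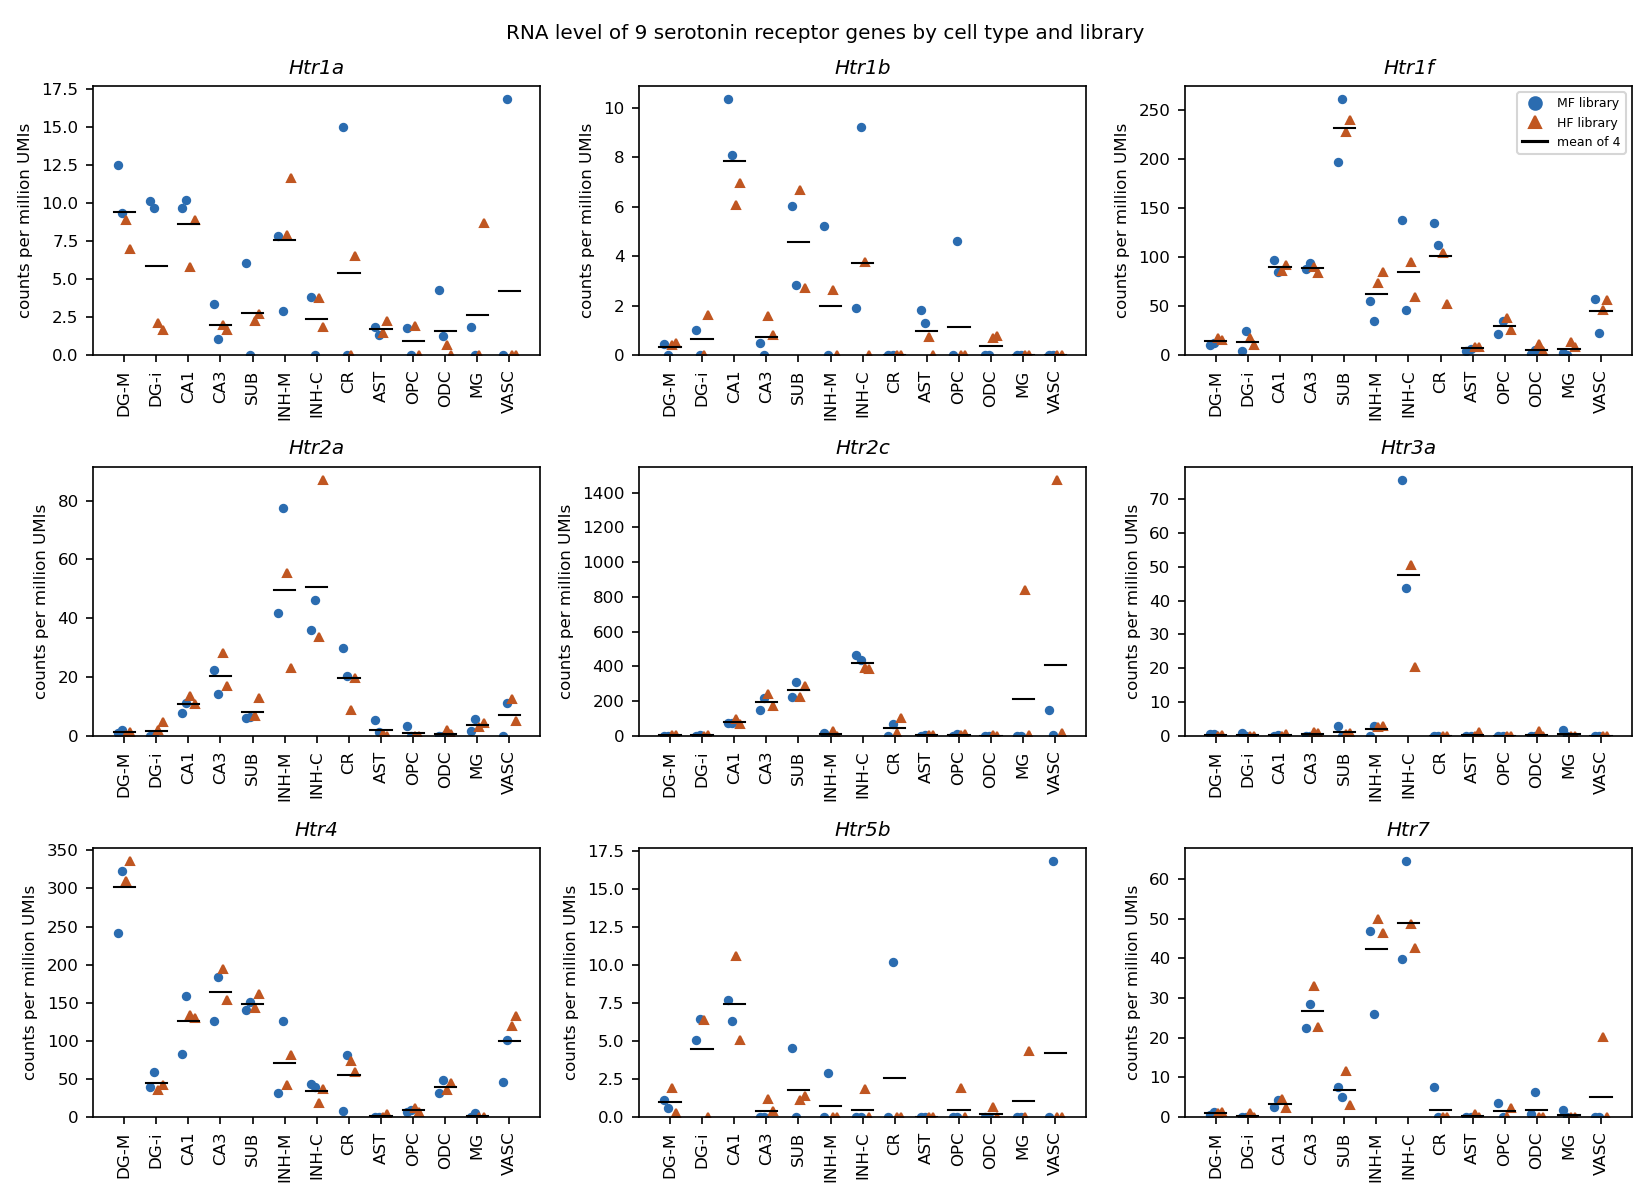
RNA level of each serotonin receptor gene in 13 cell types, in CPM (vertical axes start at 0 and differ between panels). Circles are the 2 MF libraries, triangles the 2 HF libraries and lines the mean of 4. Htr4 peaks in mature dentate granule neurons, Htr1f in SUB and Htr3a in INH-C, and the 2 high Htr2c triangles in MG and VASC belong to library HF1.

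Htr1a, the inhibitory receptor that opens GIRK potassium channels in pyramidal and granule neurons, was read at a low level in several neuron types. In DG-M its level was 12.5, 9.32, 8.89 and 6.99 CPM (9.42 ± 2.28, n = 4) and in CA1 9.63, 10.2, 5.79 and 8.86 CPM (8.61 ± 1.95, n = 4). The 2 types overlapped, and INH-M (7.56 CPM) and DG-i (5.87 CPM) also overlapped their neighbours in the order. In DG-i the 4 libraries held 10, 6, 2 and 1 counts, or 10.1, 9.64, 2.12 and 1.62 CPM, with both MF libraries above both HF libraries. CA3 held less Htr1a, 1.98 ± 0.984 CPM (n = 4), with every library below every library of CA1 and DG-M.

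Htr1b, known as a receptor on axon terminals, was highest in CA1 at 10.4, 8.07, 6.05 and 6.94 CPM (7.85 ± 1.86, n = 4). SUB followed with 6.02, 2.84, 6.68 and 2.69 CPM (4.56 ± 2.09, n = 4), and these types overlapped. DG-M held 6 counts in 1924 nuclei (0.340 CPM) and CA3 7 counts (0.711 CPM), so the gene's RNA divided CA1 from the other 2 principal neuron fields, with no overlap of libraries. MG, CR and VASC held 0 counts of Htr1b. Within CA1, the cluster with Wfs1 among its leading genes (483 nuclei) had 12.0 CPM and the other (571 nuclei) 4.95 CPM.

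Htr1f, a less studied Gi/o-coupled receptor, was the member that set SUB apart. Its level there was 197, 262, 228 and 241 CPM (232 ± 27.1, n = 4), above every library of every other type. CR came next with 101 ± 34.9 CPM, then CA1 with 89.9 ± 5.72, CA3 with 89.1 ± 4.28 and INH-C with 84.8 ± 41.3 (n = 4 each), and these 4 types overlapped. Both SUB clusters held the same level, 233 CPM, although they differed in Htr2c. At a higher clustering resolution 193 of the 359 SUB nuclei fell in a cluster that met no naming rule (237 CPM) and 155 in a SUB cluster (233 CPM), while 2 other clusters then met the rule for SUB and held 327 and 13 CPM, so which nuclei carry the name depended on the resolution. Inside INH-C the libraries ranged from 46.2 to 138 CPM. A cluster of excitatory neurons led by Foxp2 and Col8a1 that met no naming rule (238 nuclei) held 321 CPM, and an unnamed inhibitory cluster led by Mypn, Mybpc1 and Syt2 (129 nuclei) held 259 CPM. Among glia, OPC held 21.0, 34.5, 38.3 and 25.1 CPM (29.7 CPM on average), above every library of AST (3.63 to 8.56 CPM) and of ODC (0.856 to 11.5 CPM).

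Htr5b, a receptor gene that is intact in rodents, was highest in CA1, at 7.71, 6.28, 10.6 and 5.03 CPM (7.40 ± 2.39, n = 4). DG-i held 5.05, 6.42, 6.35 and 0 CPM from 15 counts, so the types overlapped. DG-M held 0.976 CPM and CA3 0.393 CPM, each below every CA1 library. VASC averaged 4.21 CPM from 3 counts, all in MF2. AST held 0 counts in each library, which allows up to 2.14 to 5.45 CPM at 3 counts.

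Htr2a, the Gq-coupled receptor on which hallucinogens act, was highest in both lineages of inhibitory neurons. INH-C held 36.0, 46.2, 33.7 and 87.1 CPM (50.7 ± 24.8, n = 4) and INH-M 41.8, 77.7, 55.2 and 23.3 CPM (49.5 ± 22.9, n = 4). The ranges of the 2 lineages overlapped widely. INH-M also overlapped CA3 and CR (19.7 ± 8.68 CPM, n = 4), while INH-C lay above every library of both. Among excitatory neurons CA3 was highest with 22.4, 14.3, 28.1 and 17.0 CPM (20.4 ± 6.10, n = 4), above every CA1 library (7.71 to 13.6 CPM). Within INH-C the gene divided the clusters: the small one led by Has2 and Kit (35 nuclei, as few as 7 in a library) held 134 CPM, the one led by Syt6 and Megf10 (82 nuclei, with 2 haemoglobin genes also among its leading genes) held 57.2 CPM, and the Vip cluster (92 nuclei) held 0 counts.

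Htr2c, the other Gq-coupled receptor, had its highest neuronal level in INH-C with 468, 436, 391 and 385 CPM (420 ± 39.0, n = 4). SUB held 226, 312, 225 and 285 CPM (262 ± 43.8, n = 4), CA3 147, 219, 241 and 174 CPM (196 ± 42.5, n = 4) and CA1 76.3, 76.5, 95.5 and 67.8 CPM (79.0 ± 11.7, n = 4). INH-C did not overlap SUB, CA3 did not overlap CA1, and SUB and CA3 overlapped. The level in CA3 rested on a small set of its nuclei. At the same higher resolution, 101 of the 494 CA3 nuclei formed a cluster of their own that was led by Scn7a, Col6a1 and Myof and met no naming rule. Its 10 leading genes included Htr2c itself and Calcrl. Its 100 leading genes held 2 genes of the CA3 marker list and 1 of the mossy cell list. These 101 nuclei held 946, 852, 1033 and 843 CPM of Htr2c (919 on average) and 365 CPM of Htr4. The other 393 CA3 nuclei, taken alone after the data were seen, held 38.0, 111, 49.9 and 53.1 CPM of Htr2c (62.9 ± 32.5, n = 4) and overlapped CA1, so the order of CA3 and CA1 for this gene was not kept without the 101 nuclei. INH-M held 15.7, 0, 28.9 and 0 CPM and DG-M 0.227, 2.48, 5.93 and 2.89 CPM. Taken as whole types, INH-C therefore lay above INH-M, and CA1 and CA3 above DG-M. The Vip cluster of INH-C held 347 CPM and the Syt6 cluster 590 CPM, while the Has2 cluster held 36.1 CPM. At the higher resolution the Has2 cluster held 12.0, 78.2, 0 and 60.5 CPM, which overlapped INH-M. The gene thus did not set every cluster of the Adarb2 lineage apart from the Lhx6 lineage. One SUB cluster (157 nuclei) held 522 CPM and the other (202 nuclei) 111 CPM. In CA1 the direction was opposite to that of Htr1b, with 21.9 CPM in the Wfs1 cluster and 118 CPM in the other.

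Htr2c is also the receptor of the choroid plexus, the tissue that secretes cerebrospinal fluid. In 2 non-neuronal types, its level and choroid RNA were both highest in library HF1. In MG Htr2c was 0, 0, 841 and 4.33 CPM and in VASC 147, 5.61, 1474 and 15.3 CPM, with library HF1 far above the others. In the same library the summed level of 16 choroid plexus genes other than Ttr was 319 CPM in MG and 502 CPM in VASC, against 8.65 to 17.1 CPM and 22.7 to 56.1 CPM in the other 3 libraries. Of these 16 genes, 2 in MG and 0 in VASC were at 0 counts in HF1, compared with 10 to 15 and 13 to 14 in the others. In HF1, Ttr itself reached 3682 CPM in MG and 4333 CPM in VASC. Outside HF1, Htr2c did not follow the choroid genes in VASC. There MF1 held 147 CPM of Htr2c beside 22.7 CPM of the 16 genes, and MF2 5.61 beside 56.1 CPM.

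The HF1 signal came from few nuclei. Counts of at least 5 of the 16 choroid genes were found in 7 nuclei, all of HF1, of which 5 had clustered with VASC and 2 with MG. That every such nucleus was of HF1 depended on this minimum, since counts of at least 3 of the genes were found in 22 nuclei, 4, 4, 12 and 2 by library, with 911 Htr2c counts together (858 of them in HF1) or 2630 CPM. All 7 carried Htr2c, 797 counts together or 14515 CPM. Without them MG held 0, 0, 3.39 and 4.33 CPM and VASC 147, 5.61, 124 and 15.3 CPM, and in the neuron types named above no value changed. What remained in VASC in MF1 and HF1 came from 13 and 44 counts.

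**Figure D2:**
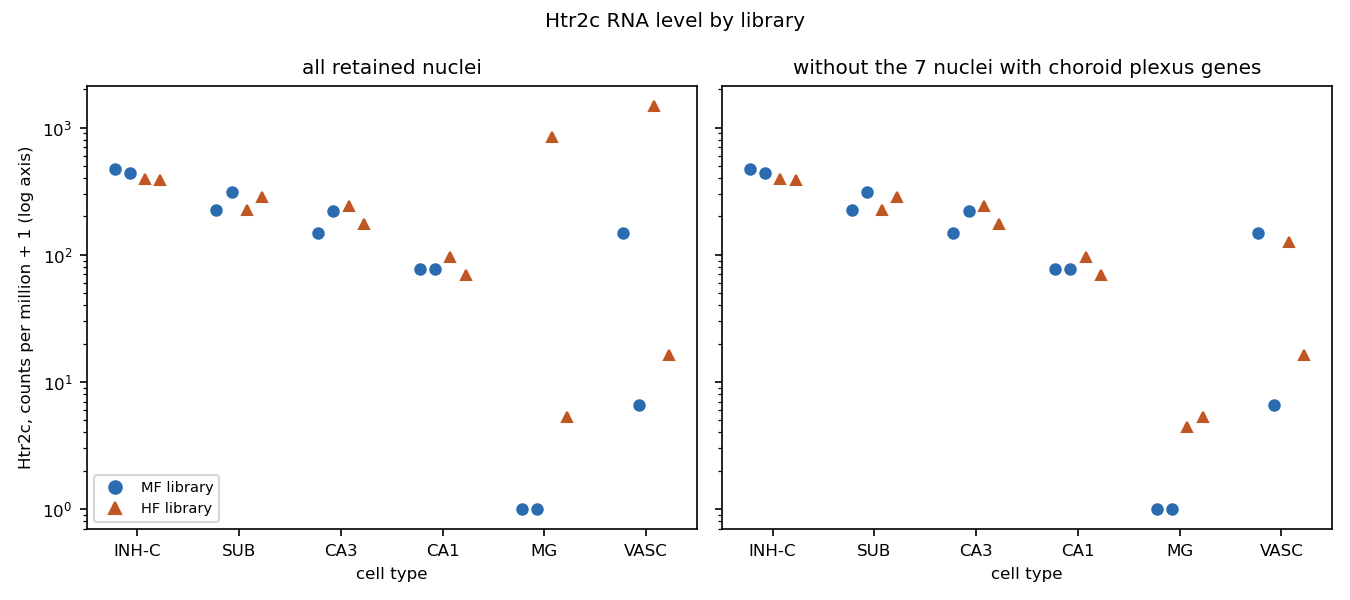
Htr2c level by library (log axis, CPM plus 1) in 6 cell types, with all retained nuclei on the left and without the 7 nuclei that carried choroid plexus genes on the right. The 4 neuron types keep their values, the HF1 point of MG falls from 841 to 3.39 and that of VASC from 1474 to 124 CPM.

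Htr3a, the ion channel subunit used to mark a class of interneurons, was highest in INH-C among the 13 types. It held 40, 19, 27 and 11 counts there, or 75.7, 43.9, 50.5 and 20.4 CPM (47.6 ± 22.8, n = 4), and 89.5% of the CPM summed over the 13 types. Over all nuclei, INH-C held 97 of the 185 counts (52.4%), and inhibitory clusters outside the 13 types held another 43 (23.2%). The next type, INH-M, reached at most 2.91 CPM, so the ranges did not overlap. The Vip cluster held 57.9 CPM and the Syt6 cluster 53.2 CPM, and the Has2 cluster 0 counts. Htr3a and Htr2a were therefore read in different clusters of one lineage except in the Syt6 cluster, which held both.

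Htr4, the Gs-coupled receptor, was highest in mature granule neurons. DG-M held 241, 322, 310 and 336 CPM (302 ± 42.3, n = 4), above every library of every other type, and 42.3% of DG-M nuclei carried a count after each nucleus was thinned to 2000 UMIs (95% exact interval 40.1 to 44.5%). DG-i held 39.4, 59.4, 36.0 and 42.2 CPM (44.2 ± 10.4, n = 4), without overlap, and 6.41% of its thinned nuclei carried a count. At the higher resolution the clusters named DG-i held 244, 98.9, 32.4 and 0 CPM, and the first overlapped DG-M. Of their nuclei, 64 in the first and 52 in the second had been DG-M. The border of mature and immature nuclei, and with it the DG-i level, thus depended on the resolution. CA3 (164 ± 30.8 CPM), SUB (149 ± 9.35) and CA1 (126 ± 31.9), with n = 4 each, overlapped one another. The 101 nuclei of the Scn7a cluster inside CA3 held 321, 419, 387 and 332 CPM of Htr4, which overlapped DG-M. Without them CA3 held 128 ± 22.3 CPM (n = 4). Within DG-M the cluster with Trpc6, Penk and Sv2c among its leading genes (333 nuclei) held 421 CPM and the other 2 clusters 307 and 231 CPM. INH-M held 31.4, 127, 42.1 and 81.4 CPM and INH-C 43.5, 39.2, 18.7 and 37.1 CPM. AST held 0, 0, 0 and 4.46 CPM.

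In oligodendrocytes the Htr4 level moved with the doublet score, a measure of how much a nucleus resembles a mixture of 2. ODC held 30.8, 48.8, 35.9 and 44.2 CPM with all nuclei and 1.66 CPM on average without nuclei of a Scrublet score over 0.05. Nearly all of it came from a cluster of 252 nuclei, at 74.8 CPM, which fell to 4.30 CPM in the 136 nuclei left. There, the summed level of the DG-M marker list moved with it, from 1942 to 584 CPM. In the other ODC cluster of 503 nuclei Htr4 stood at 0.732 CPM. The DG-M value with those nuclei left out was 306 CPM. VASC held 45.4, 101, 119 and 132 CPM of Htr4 with all nuclei and 84.3 CPM on average without them.

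Htr7, the other Gs-coupled receptor, was highest in inhibitory neurons and, among excitatory neurons, in CA3. INH-C held 39.7, 64.6, 48.7 and 42.6 CPM (48.9 ± 11.1, n = 4), INH-M 47.0, 25.9, 50 and 46.5 CPM (42.4 ± 11.1, n = 4) and CA3 22.4, 28.6, 33.1 and 22.7 CPM (26.7 ± 5.15, n = 4). These neighbours overlapped in that order. SUB (6.83 CPM) and CA1 (3.32 CPM) lay below every CA3 library, so CA3 differed from CA1 in the same direction for Htr7 and Htr2a and in the opposite one for Htr1a, Htr1b and Htr5b. Without the 101 nuclei of the Scn7a cluster, CA3 held 22.6 ± 3.27 CPM of Htr7 and 21.9 ± 6.34 CPM of Htr2a (n = 4), still above every CA1 library. An unnamed inhibitory cluster led by Sfta3-ps and Adam28 (69 nuclei) held 135 CPM.

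The share of nuclei with any member, after thinning to 2000 UMIs, was 57.7% in SUB, 54.1% in INH-C, 51.1% in CA3, 45.4% in DG-M and 43.5% in CA1. It was 11.4% in DG-i. Among glia and vascular cells it was 3.55% in AST, 3.60% in MG, 4.45% in ODC, 8.57% in OPC and 15.4% in VASC. Median depths before thinning were 2670 UMIs in AST and 1754 in MG, and 221 AST and 465 MG nuclei were too shallow to thin. How much of any share came from free RNA was not measured. Counts of 2 or more members in 1 nucleus were found in 18.9% of SUB, 16.3% of CA3, 13.9% of INH-C and 2.24% of DG-M nuclei. For single members in their highest type, thinned shares were 29.5% for Htr1f in SUB, 25.4% for Htr2c in INH-C and 10.5% for Htr7 in INH-C, against 1.77%, 1.03% and 0.0934% in AST. Shares for Htr1a in DG-M (1.77%), Htr1b in CA1 (1.42%) and Htr5b in CA1 (1.71%) were small and lay above the AST shares of 0.280%, 0.0934% and 0%. Unthinned, the shares were 7.48%, 10.4% and 9.39%.

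The genes with the most similar RNA pattern over the 52 sums of type and library, by Pearson's r of log2 CPM, are given as a description. The sums share libraries and depth, and r is not a test. For Htr4 they were Ryr2 (0.96), Grin2a (0.94) and Kcnj6 (0.93). For Htr1f they were Agbl4 (0.90), Tmem200a (0.89) and Snhg11 (0.88), for Htr2a Kcnc2 (0.85), Lin28b (0.84) and Gm44812 (0.80), and for Htr3a Gm39185 (0.87), Dlx6os1 (0.79) and Grpr (0.79). For Htr7 they were Grip1os3 (0.81), A530058N18Rik (0.79) and Trhde (0.79). Values for Htr2c were lower, with Strip2 (0.74), Cpne7 (0.72) and Tnfaip8l3 (0.68). The sparse Htr1a, Htr1b and Htr5b had no gene over 0.62, the highest being Tmem198, Gm43507 and Brd9.

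The rest of the serotonin system was read at a wide range of levels. The serotonin transporter Slc6a4 had 3 counts in all nuclei and Fev, the transcription factor of serotonin neurons, 0, so neither was detectable beyond a few counts at this depth. Of the synthesis genes, Tph2 had 88 counts and was highest in AST (9.96 ± 3.69 CPM, n = 4), Tph1 21 and Ddc 527, highest in ODC (26.0 ± 7.14 CPM). Maob, which breaks down amines, was highest in AST (152 ± 46.0 CPM), Maoa in VASC (57.1 CPM), and the uptake transporter Slc29a4 in DG-M (33.3 ± 1.32 CPM). Of the other receptors, Htr2b had 755 counts with at most 10.7 CPM in any type, Htr5a 224, Htr6 192, Htr1d 24 and Htr3b 9. Other genes of serotonin handling were Pts (116 CPM in MG), Qdpr (77.2 CPM in ODC), Aldh2 (39.2 CPM in AST), Spr (18.2 CPM in CR), Slc22a3 (13.6 CPM in OPC), Slc22a2 (12.0 CPM in VASC), Slc18a2 (8.12 CPM in INH-C), Slc18a1 (7.89 CPM in VASC), Gch1 (4.74 CPM in VASC) and Aanat (3.25 CPM in INH-C), each at its highest type. VASC held only 88153 to 394158 UMIs per library and CR 97879 to 229672. The levels of Slc22a2, Slc18a1, Gch1 and Spr there thus rest on few counts.

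Open chromatin was used neither to choose the members nor to cluster the nuclei, so it could be tested between cell types. Peaks of the 4 ATAC libraries were merged into regions, and the 154783 regions with a peak in every library were counted per type. Over the 9 genes and 2000 bases before their starts lay 75 merged regions, of which 39 had a peak in every library and passed the filter on low counts. Values are ATAC CPM, scaled to the counts of a type in a library over the 154783 regions with a peak in every library. A region was called more open in a type at a false discovery rate (FDR, Benjamini-Hochberg over all 137994 regions tested) under 0.05 and at least 2-fold over the mean of the other types in edgeR's quasi-likelihood test.

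Regions over the receptor genes were called open mainly in neurons. Called in at least 1 type were 36 of the 39, beside 89.5% of all regions tested, so that share is near the background. By type, 32 of 39 were called in CA1 (82.1%, background 47.1%), 29 in SUB (74.4%, background 36.3%), 28 in CA3 (71.8%, background 45.9%), 23 in DG-M (59.0%, background 39.4%), 13 in INH-C (33.3%, background 15.8%) and 10 in INH-M (25.6%, background 11.8%). DG-i (11 regions, background 26.8%), OPC (6, background 14.5%) and CR (3, background 8.06%) lay near their backgrounds. In AST 0 of 39 were called, where 18.2% of all regions were, and in ODC 3, MG 1 and VASC 1, where the backgrounds were 19.2%, 9.58% and 7.07%. Of the 39 regions 16 lie over Htr4, and regions of 1 gene are not independent. The typical region was itself shifted between types, with a median log2 difference from 0.89 in CA1 to -2.65 in MG, so the fold changes below are to be read beside the type's median.

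**Figure D3:**
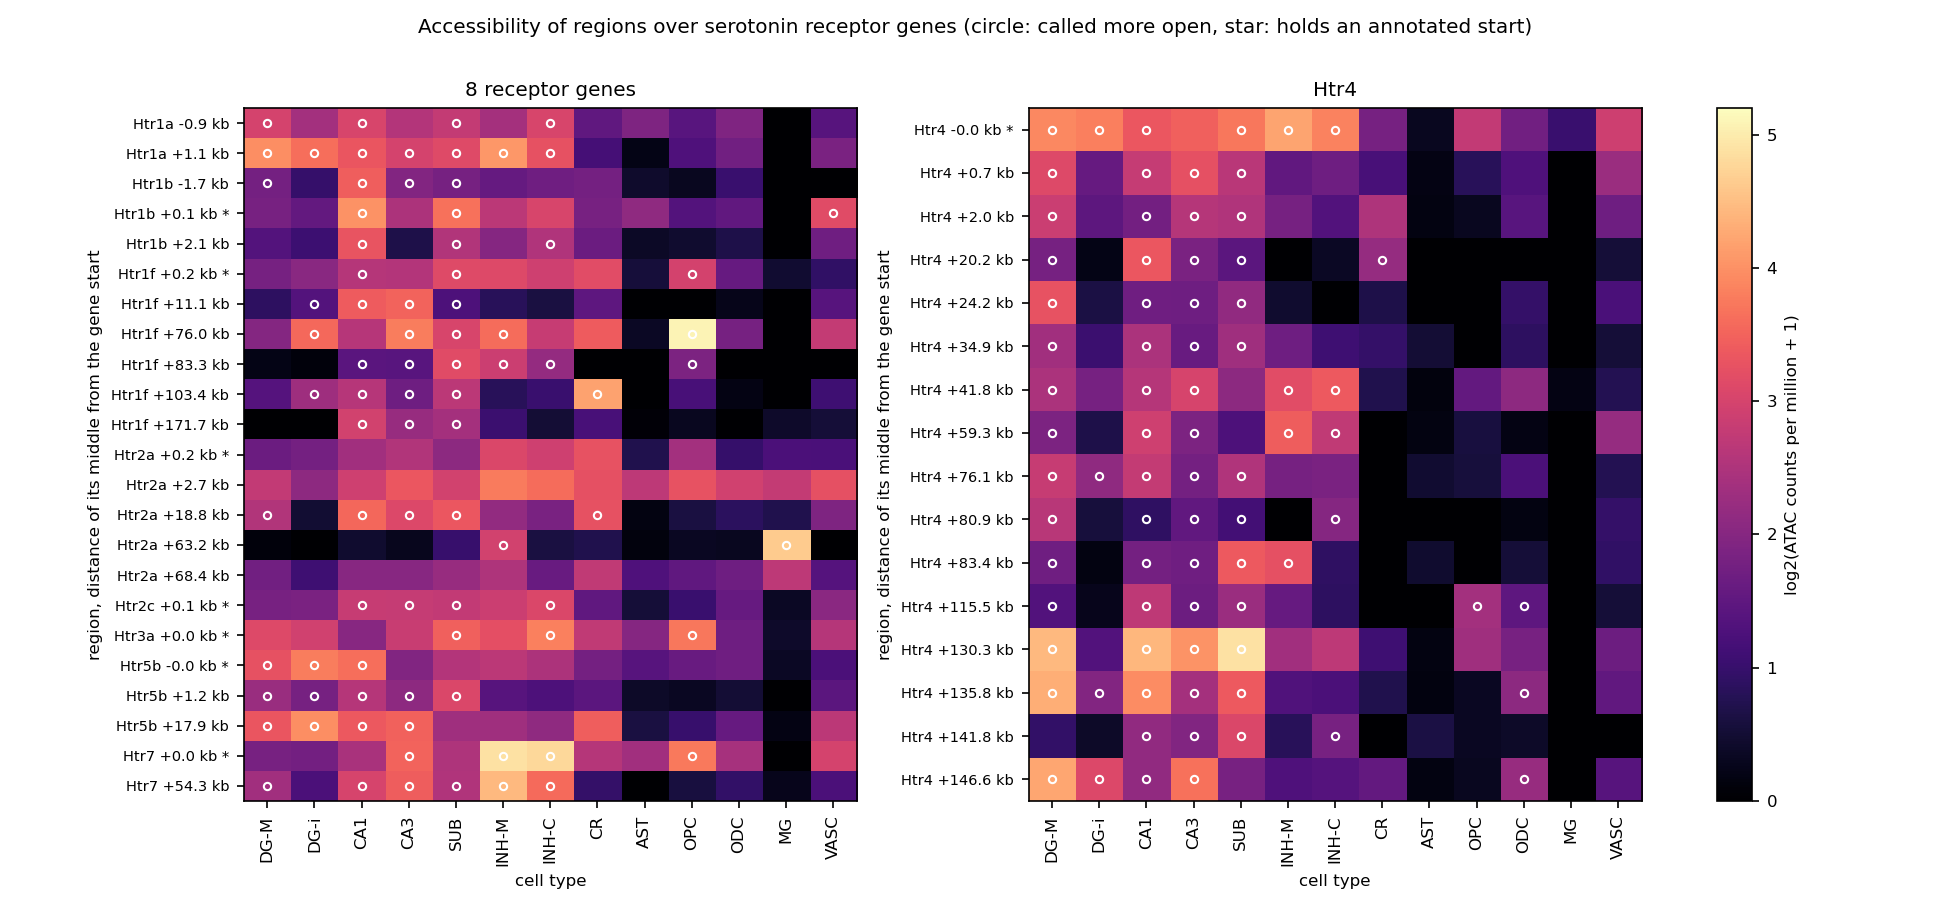
Accessibility, as log2 of ATAC CPM plus 1, of the 39 tested regions over the 9 receptor genes in 13 cell types (left, 8 genes, right, Htr4), by the distance of each region's middle from the gene start. Circles mark calls of more open chromatin and stars regions that hold an annotated start, and circles are most frequent in CA1, SUB, CA3 and DG-M and absent in astrocytes.

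For every member with a tested start region except Htr2a, the type with most RNA was among those called open at the start. How often gene starts in general were called in these types was not counted, so this tally has no background of starts. The Htr1b start (chr9:81633259-81634246, UTR) held 17.4, 16.9, 14.4 and 11.7 ATAC CPM in CA1, a log2 difference of 2.67 ± 0.28 (SE, FDR 1.35e-20, median of CA1 0.89), and was also called in SUB and VASC. The Htr7 start (chr19:36057024-36057960) held 22.7, 17.5, 32.6 and 34.0 ATAC CPM in INH-C, a log2 difference of 2.59 ± 0.32 (FDR 8.96e-14, median 0.21), and was called in INH-M, CA3 and OPC as well. The Htr3a start (chr9:48910594-48911530) held 13.3 ± 5.77 ATAC CPM in INH-C and 12.3 ± 2.78 in OPC (n = 4), and was called in both and in SUB. OPC and SUB held little Htr3a RNA, 0 and 1.12 CPM, so for this gene openness at the start and RNA level parted. The Htr1f start (chr16:65105200-65106092) was called in SUB (7.86 ± 1.91 ATAC CPM), OPC and CA1.

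The Htr4 start (chr18:62323747-62324589) was called in 6 types, with 14.0 ± 1.22 ATAC CPM in DG-M and 17.5 ± 9.90 in INH-M (n = 4 each). It thus did not follow the order of the RNA, and DG-i was called there while holding less RNA than DG-M. The Htr2c start (chrX:146962179-146963123) was called in INH-C (7.44 ± 2.50 ATAC CPM, n = 4), CA1, CA3 and SUB, the same 4 types that had the most neuronal RNA. INH-M was not called but had the second highest value there (6.31 ± 6.04 ATAC CPM), with 11.2 CPM of Htr2c RNA. In MG the Htr2c start held 2 counts in all and in VASC 7. The Htr5b start (chr1:121528058-121528934) was called in DG-i, CA1 and DG-M, with 12.7 ± 4.40 and 11.3 ± 2.51 ATAC CPM in the first 2. The Htr2a start (chr14:74640626-74641528) was called in no type, and was highest in CR (8.78 ± 4.85 ATAC CPM) and INH-M (7.46 ± 3.88). For Htr1a, a region in the coding exon (chr13:105444255-105445146) was called in DG-M (14.8 ± 2.24 ATAC CPM) and 6 other neuron types.

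Across the 13 types, how closely openness followed RNA differed from region to region, at starts and away from them. With the same nuclei behind both values and n = 13 types, Pearson's r of the CPM values was 0.95 for an Htr4 intron region at chr18:62347769-62348968, 0.93 for an Htr1b coding region (chr9:81631306-81632239), and 0.92 for the Htr7 start. It was 0.52 for the Htr4 start, 0.17 and 0.01 for the Htr2a intron regions at chr14:74659203-74660124 and chr14:74703526-74704459, and 0.07 for the Htr1f intron region at chr16:65029412-65030341. For the Htr2c start it was 0.44, and 0.73 when the RNA values were taken without the 7 choroid nuclei. On log2 values r was 0.58 and 0.24 for the 2 Htr2a regions, 0.60 for the Htr1f region, 0.77 for the Htr4 start and 0.38 for the Htr2c start (0.73 without the choroid nuclei), beside 0.80, 0.74 and 0.80 for the Htr4 intron, Htr1b coding and Htr7 start regions. The Htr1b regions also overlap the annotated gene D430036J16Rik, so openness there cannot be assigned to 1 of the 2 genes. An Htr7 intron region (chr19:36002772-36003725) was called in INH-M with 15.1, 25.7, 27.8 and 14.3 ATAC CPM, a log2 difference of 3.33 ± 0.42 (FDR 3.83e-13, median -0.04), and in 5 other neuron types. An Htr4 intron region at chr18:62459564-62460491 held 18.7, 16.9, 21.0 and 19.3 ATAC CPM in DG-M, a log2 difference of 3.95 ± 0.27 (FDR 5.97e-45, median 0.59).

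Other called regions lay in introns and exons of the same genes. For Htr4, the intron region 130300 bases from the start was highest in SUB (28.6 ± 5.35 ATAC CPM, n = 4) and then DG-M (20.8 ± 0.558), and the one at 146590 bases in DG-M (17.8 ± 1.51) and CA3 (11.6 ± 0.999). For Htr5b, a coding region (chr1:121510046-121511025) was highest in DG-i (14.8 ± 3.31) and one near the start (chr1:121526824-121527761) in SUB (7.48 ± 2.86). For Htr2a, an intron region at chr14:74659203-74660124 was called in 5 types, all of them excitatory or CR, with 10.7 ± 0.314 ATAC CPM in CA1, although CA1 held only 10.8 CPM of Htr2a RNA. For Htr1f, intron regions at chr16:64933690-64934609 and chr16:65094337-65095238 were called in CA1, SUB and CA3, the second also in DG-i. For Htr1a, the region before the start (chr13:105442309-105443193) was called in CA1, DG-M, SUB and INH-C.

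A stricter contrast, added after the data were seen, asked for a region more open in 1 type than in each of the other 12 separately (2-fold, FDR under 0.05 each time). It called 6 of the 39, beside 16.5% of all regions, which is near the background. These were regions of Htr1b and Htr4 in CA1, of Htr4 in DG-M, of Htr1f in CR and in OPC, and of Htr2a in MG. Over all regions the share was 0.715% in CA1, 1.23% in DG-M, 0.299% in CR, 1.01% in OPC and 3.74% in MG. No member region was called in DG-i (2.74% of all regions), AST (3.22%), ODC (2.22%), SUB (0.591%), CA3 (0.439%), VASC (0.159%), INH-M (0.0652%) or INH-C (0.0362%). The sequences of the middle 300 bases of 3 of these regions are given below from the plus strand of GRCm38.p6, since they are the places where a single type stood apart at these genes. Capitals mark the purine-rich core GAGGAA on either strand, letters chosen after the regions were seen.
Htr1b, upstream, chr9:81635422-81635721: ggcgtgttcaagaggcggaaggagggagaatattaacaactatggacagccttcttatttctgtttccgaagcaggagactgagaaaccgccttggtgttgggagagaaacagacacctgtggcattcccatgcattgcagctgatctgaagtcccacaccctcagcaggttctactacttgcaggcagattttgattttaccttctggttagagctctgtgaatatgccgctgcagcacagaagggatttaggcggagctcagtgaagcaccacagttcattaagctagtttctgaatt
Htr1f, intron, chr16:65029727-65030026: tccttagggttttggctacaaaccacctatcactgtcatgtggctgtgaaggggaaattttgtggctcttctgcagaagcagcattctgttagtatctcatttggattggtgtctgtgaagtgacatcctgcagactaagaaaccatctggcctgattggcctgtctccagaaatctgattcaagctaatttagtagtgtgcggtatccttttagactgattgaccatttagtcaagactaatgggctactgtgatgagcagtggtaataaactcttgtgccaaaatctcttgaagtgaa
Htr2a, intron, chr14:74703843-74704142: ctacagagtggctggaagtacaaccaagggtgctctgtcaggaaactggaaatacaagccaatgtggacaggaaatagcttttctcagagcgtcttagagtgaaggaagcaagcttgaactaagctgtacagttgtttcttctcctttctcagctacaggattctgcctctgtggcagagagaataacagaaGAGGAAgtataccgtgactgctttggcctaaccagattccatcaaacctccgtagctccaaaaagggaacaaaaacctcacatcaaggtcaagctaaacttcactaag

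The core GAGGAA was found once in the Htr2a sequence and not in the other 2, and 27.7% of 154762 regions hold it in their middle 300 bases. The E-box CANNTG was found 2, 3 and 1 times in the Htr1b, Htr1f and Htr2a sequences, and 85.2% of regions hold it. The Htr1b region (chr9:81635088-81636054) held 13, 7.61, 9.68 and 9.37 ATAC CPM in CA1, at least 1.89 on the log2 scale above each other type (largest FDR 0.00807). This was the type with most Htr1b RNA.

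The other 2 regions were open in a glial type. The Htr1f region (chr16:65029412-65030341) held 42.8, 33.5, 24.8 and 31.6 ATAC CPM in OPC, where Htr1f RNA stood at 29.7 CPM, at least 1.5 on the log2 scale above each other type (largest FDR 0.000101). The Htr2a region (chr14:74703526-74704459) held 29.6, 28.6, 17.0 and 20.4 ATAC CPM in MG from 168 counts, at least 2.11 above each other type (largest FDR 0.0067) and 6.15 ± 0.42 above their mean (median of MG -2.65). Htr2a RNA in MG was 4 counts in all (3.76 CPM), so at this depth the open region had no matching RNA. The other 3 regions were in Htr4, at 20245 bases from the start in CA1 (9.20 ± 2.83 ATAC CPM) and 24164 bases in DG-M (8.71 ± 0.434), and in Htr1f at 103405 bases in CR (17.4 ± 12.6, with 0 in MF2; largest FDR 0.0492).

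The diet comparison asked whether receptor RNA differed between HF and MF in any type. A gene was called at FDR under 0.05 over all genes tested in the type and at least 1.2-fold, by edgeR's quasi-likelihood test on library sums, with 2 libraries per diet. No member was called in any of the 16 fits (13 types, all nuclei, and all excitatory or inhibitory neurons), where 6 of 156398 tests over all genes were (0.00384%), 2 in MG (0.0364%) and 4 in OPC (0.0535%). Of 144 possible tests of the 9 members 66 passed the filter on low counts. Unadjusted p under 0.05 was found in 3 of the 66 (4.55%, beside 1.92% over all genes), and DESeq2 also called 0. The SE of the log2 differences ranged from 0.17 to 1.75, with a median of 0.30, so differences of the size of the SE could not be seen.

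Over all nuclei the log2 difference (HF against MF) was 0.32 ± 0.18 for Htr2c, 0.19 ± 0.23 for Htr4, 0.19 ± 0.20 for Htr7, 0.15 ± 0.23 for Htr2a and 0.13 ± 0.19 for Htr1f. It was 0.03 ± 0.32 for Htr5b, -0.07 ± 0.32 for Htr3a, -0.18 ± 0.27 for Htr1b and -0.30 ± 0.25 for Htr1a, and the smallest FDR of any member in any fit was 0.999. Without the 7 choroid nuclei the Htr2c value was 0.13 ± 0.17, since HF1 dropped from 120 to 93.4 CPM beside 83.9, 93.6 and 93.5 CPM in the other libraries.

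The 3 tests with an unadjusted p under 0.05 were in DG-M and INH-M. Htr2c in DG-M had 1, 8, 28 and 12 counts, with both HF libraries above both MF libraries, and a log2 difference of 1.93 ± 0.70. The level in every library was under 6 CPM, and the 49 counts lay in 1.25% of nuclei. With nuclei of a Scrublet score over 0.05 left out, the libraries ranged from 0.240 to 3.96 CPM, and HF2 lay below MF2. The order of the diets was thus not kept there. The choroid gene Ttr stood at 14.1, 0.311, 91.1 and 1.21 CPM in DG-M, highest in HF1 like Htr2c, while the 16 other choroid genes summed to 16.6, 22.0, 19.7 and 18.8 CPM; the part of choroid RNA in this difference was not tested. It was 1.13 ± 0.83 when receptor genes were allowed in the clustering, it did not pass the filter without doublets, and without MF2 it was 4.28 ± 1.01 with an FDR of 0.0292, the only setting that called it. Htr1f was 0.67 ± 0.26 in DG-M (10.5, 11.8, 17.8 and 15.7 CPM) and 0.85 ± 0.36 in INH-M (54.9, 34.5, 73.7 and 84.3 CPM), again with both HF libraries above both MF libraries. In SUB, CR and CA1, where Htr1f was highest, the differences were 0.06 ± 0.23, -0.57 ± 0.45 and 0.03 ± 0.17.

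**Figure D4:**
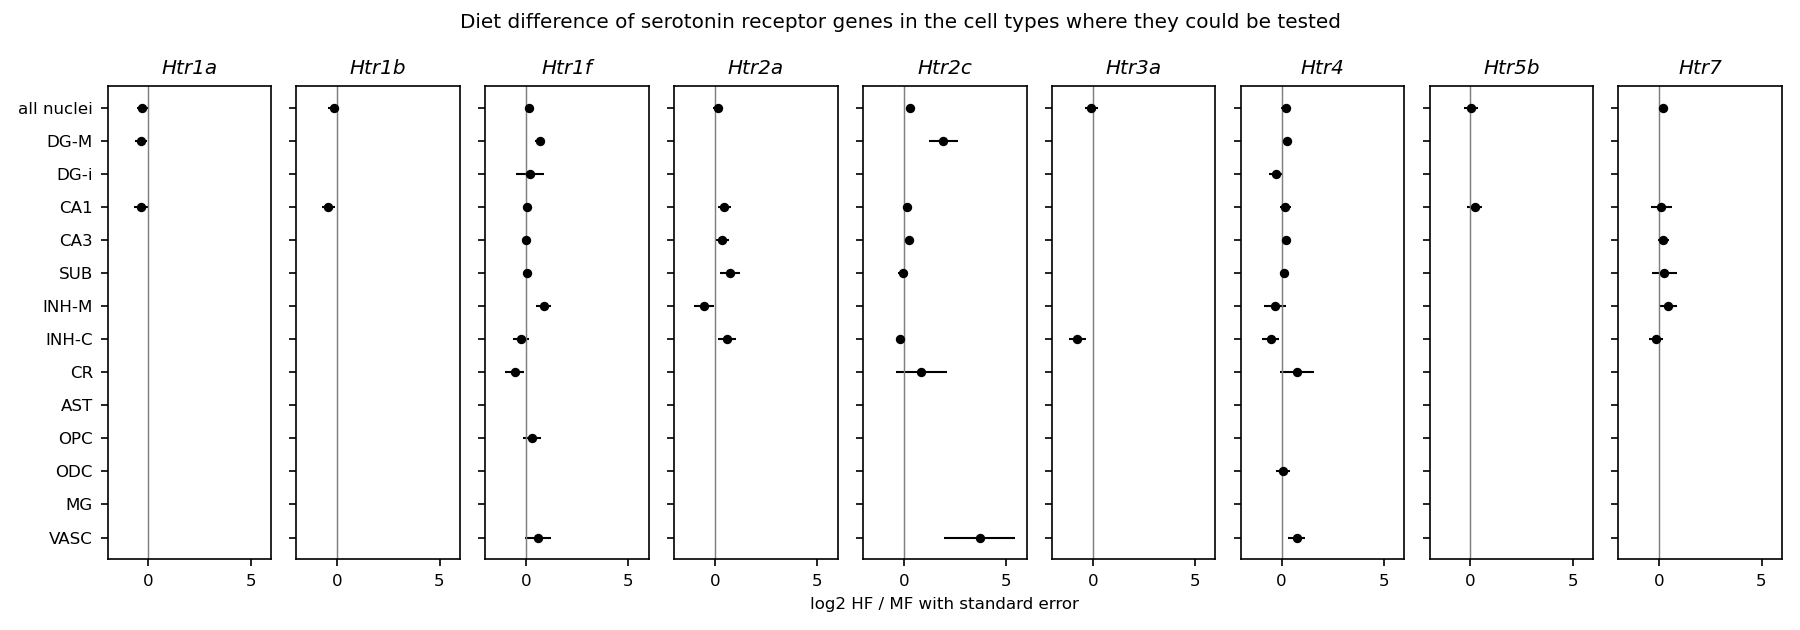
Log2 difference of RNA level between the HF and MF diets for each serotonin receptor gene, over all nuclei and in each cell type where the gene passed the low-count filter (points, with bars of 1 standard error). All points but Htr2c in DG-M (1.93) and in VASC (3.70 ± 1.75) lie within 1 unit of 0.

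For the members in their main types, the diet difference was 0.27 ± 0.25 for Htr4 in DG-M, -0.20 ± 0.21 for Htr2c and -0.15 ± 0.35 for Htr7 in INH-C, 0.60 ± 0.44 for Htr2a in INH-C and -0.54 ± 0.48 in INH-M, and -0.75 ± 0.41 for Htr3a in INH-C. In CA1 it was -0.44 ± 0.33 for Htr1b, 0.20 ± 0.38 for Htr5b and -0.36 ± 0.34 for Htr1a. Htr1a was below 0 in each of the 4 fits that tested it (-0.45 to -0.30), none with an unadjusted p under 0.05. These fits share the same 4 libraries, and the fit over all nuclei holds the CA1 nuclei, so they are not separate observations. The DG-i counts of Htr1a were too few to pass the filter. Without that filter the DG-i value was -2.25 ± 0.84 (FDR 0.996).

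Htr2c in VASC had a log2 difference of 3.70 ± 1.75, not called, which was 0.44 ± 1.09 without the 7 choroid nuclei and -1.93 ± 1.41 without HF1. In MG it did not pass the filter. Whether the diet difference varied between types was tested for 6 members in 1 model, and 0 were called, where 1 of 13250 genes was (0.00755%). Htr2c came nearest with an edgeR FDR of 0.545, and its FDR was 1 without the choroid nuclei.

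The genes that carry receptor signals did not pass the test either. Of the lists of Gi, Gq and Gs pathway genes, receptor partners and serotonin handling genes, 0 of 14, 14, 20, 11 and 19 genes were called in either direction in any fit. Their median log2 differences over the tests made were 0.07, 0.03, 0.01, -0.02 and 0.09, beside medians from -0.01 to 0.01 over all genes of a fit. The genes named from these lists, picked by CPM without regard to gene length, were Rgs7 and Kcnj3 for Gi (904 and 964 CPM in DG-M), Plcb1 and Prkce for Gq (2660 CPM in AST and 1502 CPM in DG-M), Pde4b and Pde4d for Gs (8548 CPM in ODC and 2135 CPM in CA3), and Fkbp5 and Mpdz among the partners (634 CPM in MG and 241 CPM in INH-C). Of the 5 other receptor genes 0 were called in 15 tests.

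Openness of the receptor genes did not pass the diet test. Of 43 regions in 294 tests 0 were called at FDR under 0.05, in 15 of the 16 fits (VASC tested no region of these genes), where 36 of 1147138 tests over all regions were (0.00314%), with 25 over all nuclei (0.0162%) and 5 over all excitatory neurons (0.00327%). Unadjusted p under 0.05 was found in 8 of the 294 (2.72%, beside 3.82% over all regions), and DESeq2 also called 0. The log2 differences ranged from -1.45 to 1.71 with a median of -0.10. Over all nuclei they were -0.15 ± 0.16 at the Htr1b start, -0.13 ± 0.16 at the Htr4 start, -0.07 ± 0.16 at the Htr7 start and -0.17 ± 0.16 at the Htr3a start. The start of Htr2c had the widest difference of the starts, -0.46 ± 0.20, opposite in sign to its RNA and not called, and those of Htr1f, Htr2a and Htr5b had -0.27 ± 0.19, -0.10 ± 0.21 and 0.04 ± 0.16.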

How the data were processed

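Nuclei of 4 hippocampus libraries, 2 per diet, were measured for RNA and ATAC. The deposited RNA matrices hold UMI counts per gene and nucleus, and the deposited ATAC matrices hold counts per peak and nucleus, neither of them normalized; the submitters' notes name Cell Ranger ARC 2.0.1 and mm10. Each library came with a separate peak list, and the lists were merged here, so that width and number of regions follow the union of libraries. ATAC counts were mostly even (81.1 to 83.1% of entries), as when both ends of a fragment are counted, so they are not independent fragments.

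Nuclei outside 500 to 7000 genes or 1000 to 70000 ATAC counts, or with 2% or more mitochondrial UMIs, were dropped. Retained UMIs per library were 25243860, 20151562, 29243072 and 26677289 (MF1, MF2, HF1, HF2). Doublets were scored with Scrublet. Clusters of median score over 0.05 were left out of the types (10 clusters, 1101 nuclei); single nuclei of high score stayed in elsewhere, except in an alternative without scores over 0.05 (14.3 to 16.3% of nuclei). Its automatic threshold was not used, since it marked 0 to 22.0% of nuclei by library. Leiden clustering (Scanpy 1.11.5, resolution 0.8) was named from marker lists, with at least 3 markers among the 100 genes of highest fold, a number chosen after the clusters were seen. Borders of types may differ from those of the authors. A cluster with more markers of another class among its 10 leading genes got no name. The authors' filters on nucleosome signal and start-site enrichment were not applied.

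Counts were summed per library and type and tested with edgeR 4.0.16 on R 4.3.3 (TMM, filterByExpr, two-sided quasi-likelihood F test), after the scripts were tested on simulated data. Nothing says that libraries came from separate litters, so p-values measure the spread between these libraries. Intervals and limits for a count of 0 (3 counts) cover counting error only. Alternatives were DESeq2 1.42.0, RLE normalization, other filters and fold minimums, each library left out, the replicate number as a block, other clustering and nuclei filters, and, chosen after seeing the data, choroid nuclei left out, Htr4 in oligodendrocyte clusters without doublets, CA3 without an unnamed cluster of the higher resolution, and 1 type against each other.

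The members and lists were chosen with earlier results of these data known. Named were all 9 members, for each the 3 genes of most similar pattern, the 2 most abundant genes of each pathway list, the genes of the serotonin handling and other receptor lists (1 gene is not reported here), and for ATAC the regions at starts and up to 3 called regions of smallest FDR per member. Clusters and the genes that lead them were named after their values were seen. Gene models were from GENCODE M21 (mm10).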

Additional observations from a re-analysis of the deposited data

How the results depend on the processing

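The 0 calls of a receptor gene in a type between diets became 2 with no low-count filter (Htr2c in MG and in VASC), and 0 to 2, all of Htr2c, when 1 library was left out: 1 without MF1 (Htr2c in MG), 2 without MF2 (Htr2c in MG and DG-M), 2 without HF2 (Htr2c in MG and VASC) and 0 without HF1. The 0 members whose diet difference varied between types became 1 with no filter (Htr2c, FDR 3.26e-69), and 0 to 1 when 1 library was left out, the 1 being Htr2c without HF2 (FDR 2.95e-24), while without HF1 its FDR was 1. The MG and VASC calls were in the types that hold the 7 choroid nuclei of HF1. Counts of calls over all genes moved too, from 6 to 2 with DESeq2, 224 with no filter, and 67 to 284 with 1 library left out. The 36 open regions became 6 against each other type, a contrast chosen after seeing the data. The level of Htr1f in SUB was 270 instead of 232 CPM when scaled by TMM. With that scaling Htr1a was highest in CA1 (10.3 CPM) and no longer in DG-M (10.0 CPM). Htr4 in ODC was 1.66 CPM without doublets. Over all nuclei, the small log2 differences of Htr1f, Htr2a, Htr3a, Htr4 and Htr5b changed sign in 11 pairs of gene and setting, out of 117 pairs over the 9 members. All 198 values of 22 named regions, each read only in its called type of smallest FDR, kept their direction and their call under the planned settings. Calls of these regions in their other types, such as INH-C at the Htr3a and Htr2c starts, were not followed in this way. The cause of the changes above was not tested unless named.

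Replicate numbers are shared by the diets in the labels, but nothing says that equal numbers mark a shared litter or day, and with 2 pairs the correlation of same-numbered libraries was 0.203 over all nuclei (0.0233 to 0.275 by type). With the replicate block, 0 receptor genes and 0 regions over them were called between diets, while over all genes the calls rose from 6 to 128 and over all regions from 36 to 170.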
